A study of Rattus norvegicus with 16 samples.

Results

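The liver response of wild-type Sprague Dawley rats to a methionine- and choline-deficient (MCD) diet was described from 8 RNA sequencing libraries, 4 from rats fed chow and 4 from rats fed the MCD diet. They were taken by their labels (wild type, chow or MCD) from a series of 16 libraries, whose other 8 are labelled Tspo knockout on the same diets. Tspo encodes an outer mitochondrial membrane protein that binds cholesterol, and neither wild-type group is labelled with a deletion or drug. Both groups were fed normally to 12 weeks of age, then chow or MCD for 8 weeks, and were 20 weeks old at sampling. The labels name chow as the comparison diet and give neither sex nor food intake, so the effects of the missing nutrients and of any other difference between the diets cannot be told apart. Whether each of the 4 libraries stands for its own animal is not stated either, so p-values rest on the spread among the libraries alone, which may be technical.

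Methionine is an essential amino acid and the source of S-adenosylmethionine, the methyl donor for nucleic acids, proteins and phospholipids. Choline and methyl groups are both used to make phosphatidylcholine, which the liver needs to export fat in lipoproteins and to keep membranes and bile intact. Rodents on the MCD diet lose weight and develop a fatty, inflamed liver, and the diet is a common model of steatohepatitis.

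Levels are in CPM, counts scaled to a common library total after a composition factor (TMM), as mean ± SD with n = 4 libraries per diet. They are not per length, so they are compared between diets and not between genes. Changes are log2 folds of MCD over chow ± SE with p-values of edgeR's quasi-likelihood test, adjusted by Benjamini-Hochberg over all 11162 genes tested. "Rose" and "fell" are used of an adjusted p under 0.05. Values of single libraries are listed by library number, 1 to 4. Where a gene had fewer than 20 counts over the 4 libraries of a diet, or was at 0 in most of them, its levels are given without a fold.

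Total counts were 8745756 to 12896848 in the chow and 10931113 to 15762650 in the MCD libraries. An index of message length was taken as the average log2 CPM over 16 genes of long messages less the average over 23 of short ones. The index is given relative to its mean over the wild-type chow libraries. It was 0.14, 0.16, 0.11 and -0.41 on chow and 1.46, 1.70, 1.17 and 1.41 on MCD. It moved with the diet, and its part in the results was not tested beyond the values given with the index in the model. The index is made from the same counts as the calls. Of the 16 long genes 10 rose and 0 fell. Of the short list, with 24 tested genes once other symbols were matched, 8 fell and 0 rose. The index is thus not independent of the diet calls, and a call lost with it in the model cannot be laid to message length. Chow library 4 lay apart from the other chow libraries in the index and on the second principal component of the 8 libraries (18.7% of the variance), and the first (59.8%) parted the diets. Rn45s, a ribosomal RNA precursor, took 2.25% to 15.1% of the counts on chow and 4.21% to 15.3% on MCD. Summed over 12 hepatocyte markers the level was 184731 to 225198 CPM on chow and 107232 to 149070 CPM on MCD, so the labelled tissue's defining genes were abundant in every library. Red blood cell markers summed to 1314 to 1942 CPM on chow and 102 to 272 CPM on MCD, and bile duct cell markers to 33.6 to 58.9 and 89.2 to 154 CPM. Ranges of the macrophage (521 to 746 and 360.4 to 548 CPM), endothelial (293 to 348 and 265 to 377 CPM) and stellate cell sums (294 to 510.1 and 456 to 1297 CPM) overlapped, as did those of pancreas and adipose markers (5.38 CPM at most). Lymphocyte markers summed to 15 to 23 CPM on chow and 25.8 to 40.9 CPM on MCD, and neutrophil markers to 2.14 to 3.18 CPM on chow and 1.03 to 1.83 CPM on MCD, with Mpo and Retnlg at 0. Neither pair of ranges overlapped. Of 7 lymphocyte markers tested, Cd4 alone rose (from 8.39 ± 2.96 to 25 ± 5.65 CPM) and Cd79b alone fell. The median log2 fold of the 7 was -0.38, so the higher sum does not stand for the list. Of 10 neutrophil markers 2 had enough counts to be tested, and neither was called (Csf3r, adjusted p = 0.934, and S100a9, adjusted p = 0.108). The lower neutrophil sum thus rests on few counts. In bulk tissue fewer cells of a type and less RNA per cell cannot be told apart.

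Between the diets 3809 of 11162 genes (34.1%) were called, 2031 higher (18.2%) and 1778 lower (15.9%) on MCD. By fitted fold, 1932 of these differed at least 2-fold, 1174 higher and 758 lower on MCD, and 100 were at least 8-fold higher and 56 at least 8-fold lower. The middle 50% of all log2 folds lay between -0.46 and 0.52, with a median of -0.00. The 4 MCD libraries lay wholly above the 4 chow libraries for 20.1% of genes and wholly below for 17.9%. All changes are relative to the bulk of genes: with library totals in place of the composition factor the median gene sat 0.549 higher on MCD, and 4806 genes were called higher and 508 lower. With the message length index in the model 1197 were called higher and 1185 lower, and 1586 of the 3809 calls (41.6%) remained.

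**Figure D1:**
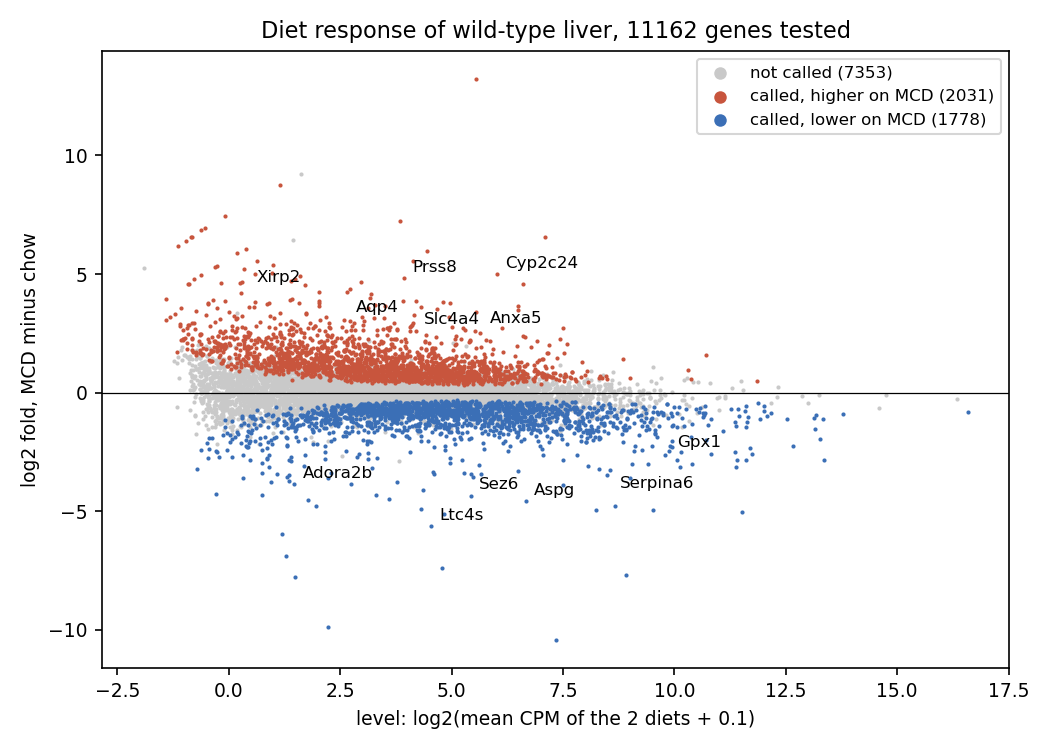
Each of the 11162 tested genes is a point, with its level over both diets on the x axis (log2 of mean CPM + 0.1) and the log2 fold of MCD over chow on the y axis. Coloured points were called (2031 higher, 1778 lower on MCD), and 12 genes described in the text are named. Fitted folds of genes with few counts, at the far left and at the extremes, depend on the prior count.

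Some of the genes with large folds, though not the largest, are described first. Cyp2c24 rose from 3.93 ± 1.55 to 126 ± 28.2 CPM; it is a rat cytochrome P450 with close copies, so its own value is uncertain. Its libraries held 3.52, 4.46, 2.02 and 5.71 CPM on chow and 143, 126, 86 and 148 CPM on MCD, with no overlap, and the log2 fold was 4.98 ± 0.40 (adjusted p = 9.04e-07). Prss8, the membrane protease prostasin that activates the epithelial sodium channel, had 0.649, 1.3, 1.01 and 1.14 CPM on chow and 17.9, 48.2, 35.5 and 15.7 CPM on MCD. It rose with a log2 fold of 4.82 ± 0.61 (adjusted p = 4.01e-05). Gpr64 (now Adgrg2), an adhesion receptor best known from the epididymis, rose from 0.575 ± 0.387 to 14.8 ± 6.06 CPM (log2 fold 4.68 ± 0.58, adjusted p = 3.47e-05). Fam129a (now Niban1), a stress-induced cytoplasmic protein, rose from 0.915 ± 0.425 to 17.1 ± 8.61 CPM (log2 fold 4.15 ± 0.45, adjusted p = 1.11e-05). Its MCD libraries spread from 8.25 to 28.9 CPM, all above the highest chow library at 1.21 CPM. Levels alone are given for Xirp2, an actin-binding protein of striated muscle, which rose from 0.427 ± 0.303 to 7.57 ± 1.5 CPM (adjusted p = 7.72e-06). The same holds for Mmp27, a matrix metalloproteinase (from 0.178 ± 0.157 to 28.4 ± 27.1 CPM, adjusted p = 0.000593), and Trem2, a lipid-sensing receptor of macrophages (from 0.201 ± 0.193 to 5.71 ± 4.63 CPM, adjusted p = 0.000201).

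Sez6, a membrane protein best known from neurons, fell by 4.34 ± 0.42 on the log2 scale (adjusted p = 4.03e-06). Its chow libraries were at 100, 93.3, 78.3 and 55.8 CPM and its MCD libraries at 5.45, 3.26, 4.31 and 3.2 CPM, with no overlap. Ltc4s, the leukotriene C4 synthase, fell from 45.7 ± 20 to 0.931 ± 0.593 CPM, with 55.6, 41.3, 66.2 and 19.9 CPM on chow and 0.454, 1.63, 1.21 and 0.424 CPM on MCD. Ltc4s had a log2 fold of -5.62 ± 0.60 (adjusted p = 1.11e-05). Aspg, an asparaginase, fell from 194 ± 50.5 to 8.22 ± 6.95 CPM (log2 fold -4.57 ± 0.55, adjusted p = 2.66e-05). MCD library 1 (18.1 CPM) was the highest of its group; without it the log2 fold was -5.30. Sult1e1, the estrogen sulfotransferase, had 1274, 973, 1373 and 235 CPM on chow, was at 0 in 3 MCD libraries and at 19.4 CPM in MCD library 1 (adjusted p = 0.00111, and 0.0596 with the index as a covariate). Lhx8, a LIM homeobox factor of the developing brain and ovary, fell from 6.33 ± 2.5 to 0.285 ± 0.198 CPM (adjusted p = 0.000168). Ky, a muscle protein named for the kyphoscoliosis mutant, had 222 counts over the chow and 1 over the MCD libraries (adjusted p = 0.000345). Sds, the serine dehydratase that feeds serine into gluconeogenesis, fell from 19.2, 19.3, 11 and 104 CPM on chow to 1.44, 1.04, 1.09 and 1.55 CPM on MCD. Sds had a log2 fold of -4.89 ± 1.12 (adjusted p = 0.00365). Chow library 4 was the high one, and without it the log2 fold was -3.68 (adjusted p = 0.0116); with the index as a covariate it was not called (adjusted p = 0.377).

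Over 36 lists of genes, the share that rose reached 45% in the zinc transporters and 44.4% in both the Kruppel-like and early growth response factors and the S100 proteins and annexins. The share that fell reached 47.8% in the serpins, 39.5% in retinoid, steroid and thyroid hormone metabolism and 38.8% in the proteasome. Over all genes these shares were 18.2% and 15.9%. More members rose than fell in 21 of the 36 lists and fewer in 13, and with library totals only in 34 and 1. In that setting 4806 of all genes tested rose and 508 fell.

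**Figure D2:**
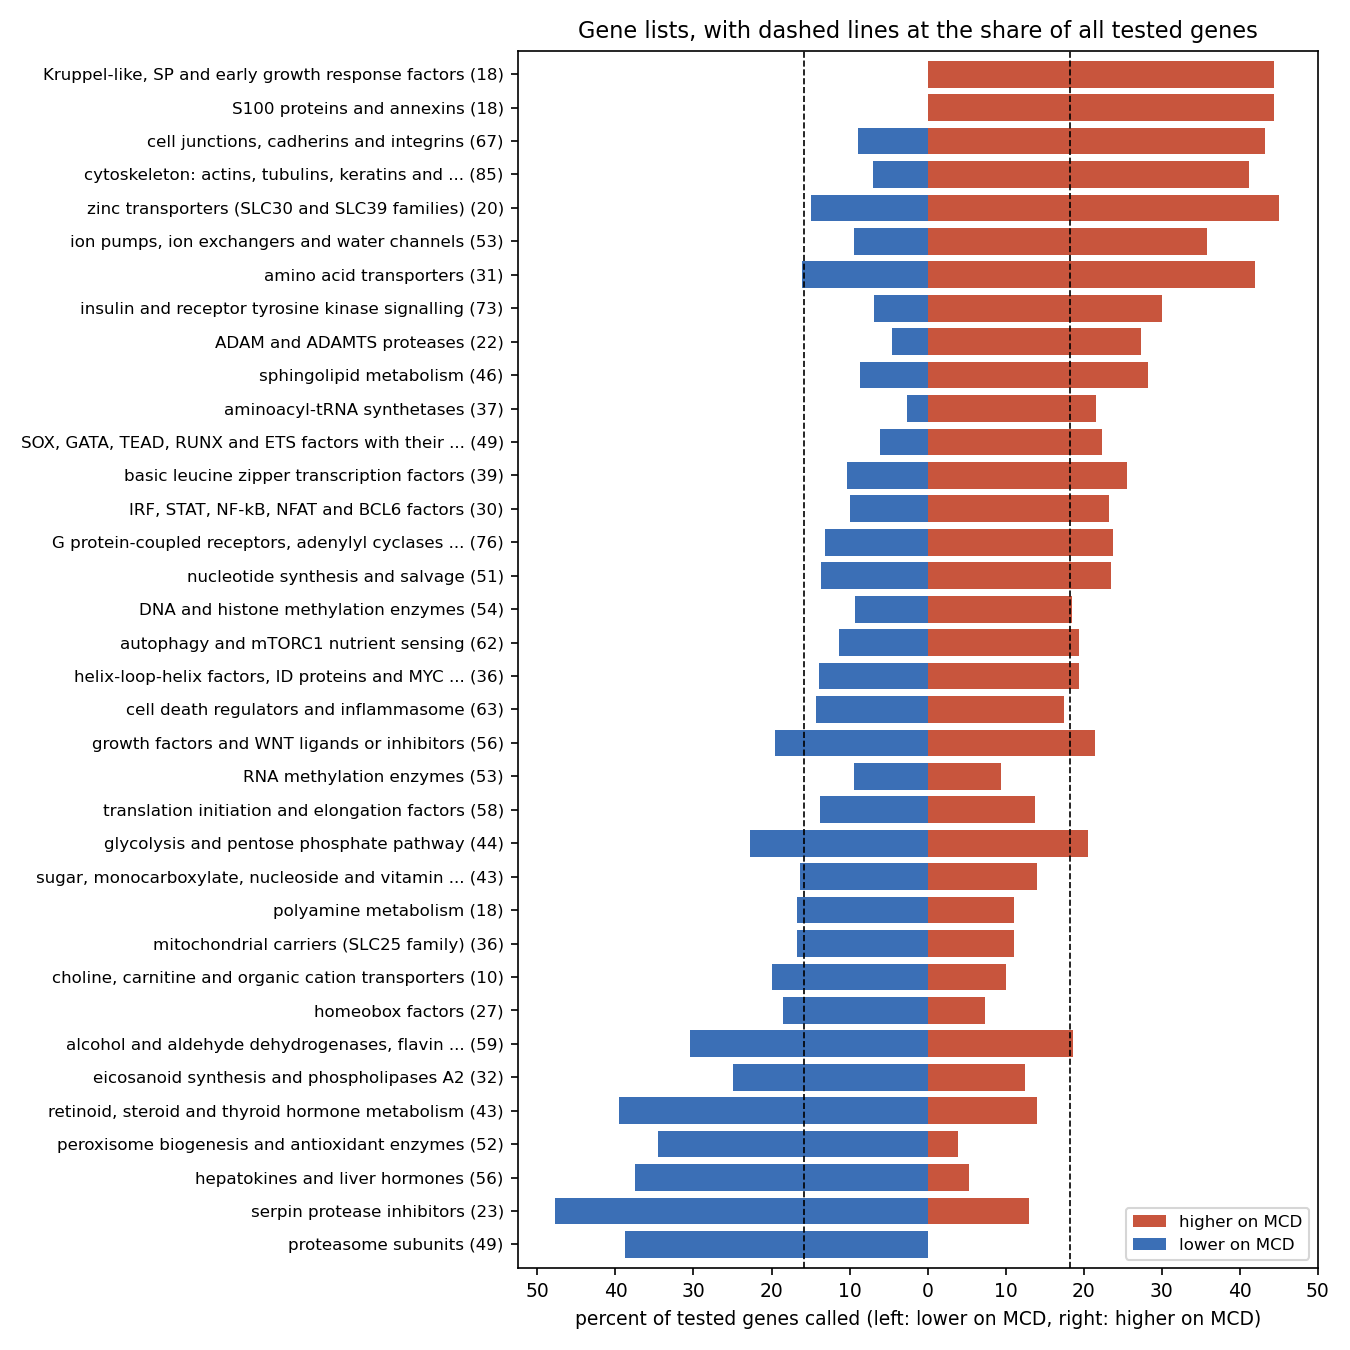
Bars show the percent of tested genes of each list (number tested in brackets) called higher on MCD (right) or lower (left), sorted by the difference of the shares. Dashed lines mark the shares over all 11162 tested genes, 18.2% higher and 15.9% lower.

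Transporters of amino acids, ions and zinc were more often higher than lower on MCD. Of 31 amino acid transporters tested 13 rose and 5 fell, with a median log2 fold of 0.68 against -0.00 over all genes. Slc7a1, the cationic amino acid transporter CAT1 that carries arginine and lysine, rose from 1.39, 0.186, 0.433 and 0.285 CPM to 6.21, 5.03, 3.4 and 8.9 CPM. Slc7a1 had a log2 fold of 3.31 ± 0.56 (adjusted p = 0.000445). All MCD libraries lay above all chow libraries, and without chow library 1, the highest of its group, the log2 fold was 4.30. Slc1a2, a glutamate transporter, rose from 3.18 ± 0.543 to 10 ± 1.63 CPM (log2 fold 1.65 ± 0.19, adjusted p = 1.8e-05). Slc36a1, which carries small amino acids out of lysosomes, rose from 2.06 ± 0.825 to 6.02 ± 2.11 CPM (log2 fold 1.55 ± 0.30, adjusted p = 0.00122). Slc6a13, which takes up GABA and taurine, fell from 166, 146, 127 and 165 CPM to 61.6, 23.6, 28.6 and 30.7 CPM. Slc6a13 had a log2 fold of -2.06 ± 0.27 (adjusted p = 5.48e-05). Slc43a1, an exporter of branched-chain amino acids, fell from 27.6 ± 4.05 to 11.5 ± 2.52 CPM (log2 fold -1.26 ± 0.18, adjusted p = 0.000133). Without chow library 2, MCD library 2 or MCD library 3 the number that fell was 3. With the index in the model 5 of the 31 rose and 3 fell, Slc7a1, Slc1a2, Slc36a1, Slc6a13 and Slc43a1 among them.

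Amino acid shortage is known to act through response elements read by ATF4 and its partners, in genes that include Trib3, a pseudokinase that restrains AKT. Trib3 rose from 2.97, 1.95, 0.722 and 1.52 CPM on chow to 9.31, 11.3, 10.3 and 14.8 CPM on MCD, with no overlap. Trib3 had a log2 fold of 2.63 ± 0.42 (adjusted p = 0.000279). Hrk, a BH3-only protein that promotes cell death, rose from 0.742, 1.02, 0.289 and 1.33 CPM to 12.2, 6.33, 5.16 and 8.38 CPM. Hrk had a log2 fold of 3.17 ± 0.46 (adjusted p = 0.000128). The 250 bases before the gene start in RefSeq (build GRCr8), which could be matched for 8620 of the 11162 tested genes, were searched on both strands for TGATGNAAN, the core of an amino acid response element, where N is any base. The motif stood in 167 of the 8620 promoters (1.94%), in 31 of 1562 genes that rose (1.98%) and in 33 of 1367 that fell (2.41%), so its share among the genes that rose was close to that of all. Slc7a1, Trib3 and Hrk were among those 31, and their windows are printed to show where the match (in capitals) lies before the gene start.
Trib3 (chr3:161275534-161275575, minus strand, match 22 bases before the start): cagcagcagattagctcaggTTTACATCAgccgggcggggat
Slc7a1 (chr12:11664438-11664486, plus strand, match 30 bases before the start): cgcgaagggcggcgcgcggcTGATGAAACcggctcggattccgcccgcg
Hrk (chr12:44070641-44070689, minus strand, match 108 bases before the start): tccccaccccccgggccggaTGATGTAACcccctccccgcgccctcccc
In Trib3 the match is on the opposite strand of the motif as written, and in Slc7a1 and Hrk on the same strand. A match of letters is a description of the sequence and not a measured binding site.

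Ion pumps, exchangers and water channels rose in 19 of 53 cases and fell in 5 (median 0.30; 9 and 6 with the index in the model). Aqp4, a water channel best known from brain astrocytes, had 0.371, 0.651, 1.44 and 0.19 CPM on chow and 9.01, 6.59, 16 and 15.7 CPM on MCD, with no overlap. Aqp4 had a log2 fold of 4.26 ± 0.58 (adjusted p = 6.97e-05). Slc4a4, the sodium bicarbonate cotransporter, rose from 2.32, 4.09, 4.62 and 9.51 CPM to 30.1, 36.7, 25.1 and 33.6 CPM. Slc4a4 had a log2 fold of 2.61 ± 0.38 (adjusted p = 0.000143). Slc20a1, a sodium-dependent phosphate transporter, rose from 19.6 ± 4.76 to 90 ± 41.5 CPM (log2 fold 2.20 ± 0.31, adjusted p = 0.000102). Trpm4, a calcium-activated cation channel, rose from 3.07 ± 0.92 to 12.9 ± 3.82 CPM (log2 fold 2.07 ± 0.30, adjusted p = 0.000127). Clcn3, a chloride-proton exchanger of endosomes, rose from 11.2 ± 3.26 to 27.2 ± 1.86 CPM (log2 fold 1.28 ± 0.19, adjusted p = 0.000138). Among them Aqp4 and Slc4a4 showed no overlap of the diets, nor did Slc20a1, Trpm4 and Clcn3.

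The zinc transporters moved both ways, 9 of 20 up and 3 down (median 0.29; 5 and 2 with the index in the model, 5 and 3 without chow library 3). Slc39a8 (ZIP8), which takes up zinc and manganese at the cell surface, fell from 82.3, 69.7, 92.5 and 87.1 CPM to 44.4, 38.4, 37.2 and 32.6 CPM. Slc39a8 had a log2 fold of -1.12 ± 0.15 (adjusted p = 5.84e-05). Slc39a4 (ZIP4), the importer of dietary zinc, fell from 40.5 ± 13 to 16.8 ± 2.54 CPM (log2 fold -1.27 ± 0.24, adjusted p = 0.0011). Slc39a7 (ZIP7), which releases zinc from the endoplasmic reticulum, rose from 97.8 ± 21 to 165 ± 19.2 CPM (log2 fold 0.75 ± 0.16, adjusted p = 0.00205). Slc39a11 rose from 2.44 ± 1.32 to 6.98 ± 0.832 CPM (log2 fold 1.49 ± 0.28, adjusted p = 0.000921). Slc39a9 rose from 4.96 ± 3.43 to 18 ± 2.82 CPM (log2 fold 1.85 ± 0.34, adjusted p = 0.000806). Chow library 4 stood at 10.1 CPM above the other chow libraries, and the log2 fold was 2.46 without it. The 2 surface importers named here fell and the 3 other family members named rose.

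Carriers of sugars, monocarboxylates, nucleosides and vitamins were close to the background, with 6 of 43 up and 7 down (median 0.14; 4 and 4 with the index in the model). Slc5a9 (SGLT4), a sodium-coupled sugar carrier, was at 0 in 3 chow libraries, with 1 count in chow library 3, and at 3.33, 2.48, 2.12 and 1.65 CPM on MCD (adjusted p = 3.01e-05). Slc16a12, a creatine and monocarboxylate carrier, rose from 26.9 ± 7.11 to 63.3 ± 3.15 CPM (log2 fold 1.23 ± 0.17, adjusted p = 9.55e-05). Slc46a1, the proton-coupled folate carrier, fell from 49.7 ± 3.14 to 20.8 ± 4.02 CPM (log2 fold -1.26 ± 0.16, adjusted p = 5.27e-05). Slc17a2, a phosphate transporter of the SLC17 family, fell from 139 ± 43.5 to 40.1 ± 8.49 CPM (log2 fold -1.80 ± 0.23, adjusted p = 4.47e-05). Of 36 mitochondrial carriers 4 rose and 6 fell (median -0.04), with 1 or 2 up without chow library 2 or any one MCD library and 1 up and 0 down with the index in the model. Of 10 carriers of choline, carnitine and organic cations 1 rose and 2 fell (median -0.37), and without any one library 0 or 1 rose and 1 to 3 fell.

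Among transcription factors, the Kruppel-like, SP and early growth response list had 8 of 18 up and 0 down and a median log2 fold of 0.75 (5 up with the index in the model). Klf6, an early response factor of injured liver, rose from 20.5, 28.3, 29.6 and 20.8 CPM to 60.8, 53.1, 40.2 and 97.4 CPM. Klf6 had a log2 fold of 1.34 ± 0.22 (adjusted p = 0.000354). Klf13 rose from 1.04 ± 0.33 to 3.92 ± 0.46 CPM (log2 fold 1.92 ± 0.35, adjusted p = 0.000801). Egr1, an immediate early factor, had 1.21, 4.28, 1.88 and 1.33 CPM on chow and 8.55, 11.8, 20.1 and 14.7 CPM on MCD, with no overlap. Egr1 had a log2 fold of 2.65 ± 0.49 (adjusted p = 0.00086); without chow library 2 the fold was 3.25. Egr2 rose from 0.281 ± 0.228 to 1.76 ± 0.533 CPM (adjusted p = 0.00148).

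Basic leucine zipper factors rose in 10 of 39 cases and fell in 4 (median 0.11; 5 and 4 with the index in the model). Atf6, the membrane-bound sensor of the unfolded protein response, rose from 8.16, 11.2, 5.49 and 22.2 CPM to 47.5, 57.2, 51.3 and 67.3 CPM. Atf6 had a log2 fold of 2.24 ± 0.34 (adjusted p = 0.000172). Mafk, a small MAF protein that pairs with NRF2, rose from 12.9 ± 0.93 to 28.3 ± 2.63 CPM (log2 fold 1.13 ± 0.16, adjusted p = 8.38e-05). Crem, the cAMP-responsive modulator, had 99.7, 111, 114 and 99 CPM on chow and 26, 30, 28.8 and 30 CPM on MCD. Crem had a log2 fold of -1.88 ± 0.21 (adjusted p = 1.45e-05). Nfil3, a repressor under circadian and cytokine control, fell from 41 ± 2.49 to 12.3 ± 4.45 CPM (log2 fold -1.73 ± 0.29, adjusted p = 0.000348). Crem and Nfil3 both had tightly grouped chow libraries, and in neither did an MCD library reach the chow range.

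Helix-loop-helix factors and their partners rose in 7 of 36 cases and fell in 5 (median 0.29; 4 and 2 with the index in the model, and 5 or 6 up and 3 down without chow library 1 or 3 or MCD library 2 or 4). Id1, an inhibitor of differentiation and a target of BMP signalling, rose from 3.62, 2.98, 3.32 and 2.28 CPM to 22.1, 13.2, 21.5 and 24.8 CPM. Id1 had a log2 fold of 2.74 ± 0.25 (adjusted p = 2.52e-06). Bhlha15 (MIST1), a factor of secretory cells, rose from 8.99, 6.88, 8.96 and 2.09 CPM to 38.4, 23.6, 21 and 62.3 CPM. Bhlha15 had a log2 fold of 2.44 ± 0.42 (adjusted p = 0.000523). Without the libraries numbered 4 it was 1.74. Myc rose from 8.54 ± 5.11 to 31.3 ± 5.89 CPM (log2 fold 1.89 ± 0.39, adjusted p = 0.00173). Ahr, the aryl hydrocarbon receptor, rose from 12.7 ± 2.81 to 37 ± 8.26 CPM (log2 fold 1.54 ± 0.23, adjusted p = 0.00014). In the list of IRF, STAT, NF-kB, NFAT and BCL6 factors 7 of 30 rose and 3 fell (median 0.16; 2 and 3 with the index, 4 and 3 without MCD library 2). Stat3, which carries interleukin-6 signals, rose from 63.2 ± 5.94 to 144 ± 15.3 CPM (log2 fold 1.19 ± 0.19, adjusted p = 0.000323). Stat6, which carries interleukin-4 signals, rose from 13.2 ± 1.83 to 33.3 ± 4.51 CPM (log2 fold 1.33 ± 0.21, adjusted p = 0.000214). Irf3, the factor that starts interferon responses, fell from 139 ± 41.8 to 54.5 ± 10.1 CPM (log2 fold -1.35 ± 0.24, adjusted p = 0.000643).

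Of 49 SOX, GATA, TEAD, RUNX and ETS factors and coactivators 11 rose and 3 fell (median 0.14). This count moved with single libraries: 5 to 7 rose and 1 to 4 fell without any one of chow libraries 1, 3 and 4 or MCD libraries 2 and 4, and 1 rose and 5 fell with the index in the model. Yap1, the coactivator of the Hippo pathway, rose from 7.99 ± 3.76 to 19.4 ± 3.24 CPM (log2 fold 1.27 ± 0.31, adjusted p = 0.00515). Its partner Tead1 rose from 2.07 ± 0.876 to 6.93 ± 0.982 CPM (log2 fold 1.74 ± 0.41, adjusted p = 0.00438). Neither was called once the index was a covariate (adjusted p = 0.0917 and 0.37). Tcf7l2, a factor of WNT signalling, fell from 29.2 ± 7 to 15 ± 1.68 CPM (log2 fold -0.96 ± 0.20, adjusted p = 0.00225; adjusted p = 0.146 with library totals only). Of 27 homeobox factors 2 rose and 5 fell (median -0.03; 3 fell without chow library 3, MCD library 2 or MCD library 4). Zhx3, a zinc finger and homeobox repressor, rose from 8.33 ± 1 to 23.6 ± 2.44 CPM (log2 fold 1.50 ± 0.24, adjusted p = 0.000323). Cux2, a factor known for its sex-biased level in rodent liver, had 36.9, 5.21, 6.79 and 0.761 CPM on chow and 1.06, 1.11, 0.303 and 0.942 CPM on MCD (log2 fold -3.86 ± 1.05, adjusted p = 0.0106). The ranges overlapped, and without chow library 1 it was not called (log2 fold -2.29, adjusted p = 0.0816).

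Enzymes that write or erase methyl groups on DNA and histones were near the background, with 10 of 54 up and 5 down (median 0.25, and -0.31 with the index in the model). The number that fell was 0 to 3 without any one wild-type library other than chow library 4, and with the index in the model 3 rose and 9 fell. Dnmt3a, a de novo DNA methyltransferase, rose from 7.65 ± 1.2 to 16.6 ± 2.84 CPM (log2 fold 1.12 ± 0.23, adjusted p = 0.00211). Nsd1, a histone H3 methyltransferase, rose from 26.5 ± 3.55 to 61.1 ± 7.61 CPM (log2 fold 1.21 ± 0.23, adjusted p = 0.00114). Both were without a call once the index was in the model (adjusted p = 0.152 and 0.0767). Among 53 RNA methylation enzymes 5 rose and 5 fell (median -0.06; 3 fell with upper quartile factors, with no filter, or without chow library 1 or 3 or MCD library 2 or 4). The RNA demethylase Fto rose from 7.14 ± 1.98 to 20.9 ± 2.83 CPM (log2 fold 1.54 ± 0.24, adjusted p = 0.000248). Alkbh5, another RNA demethylase, rose from 9.14 ± 4.81 to 18.6 ± 1.18 CPM (log2 fold 1.01 ± 0.26, adjusted p = 0.00774).

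**Figure D3:**
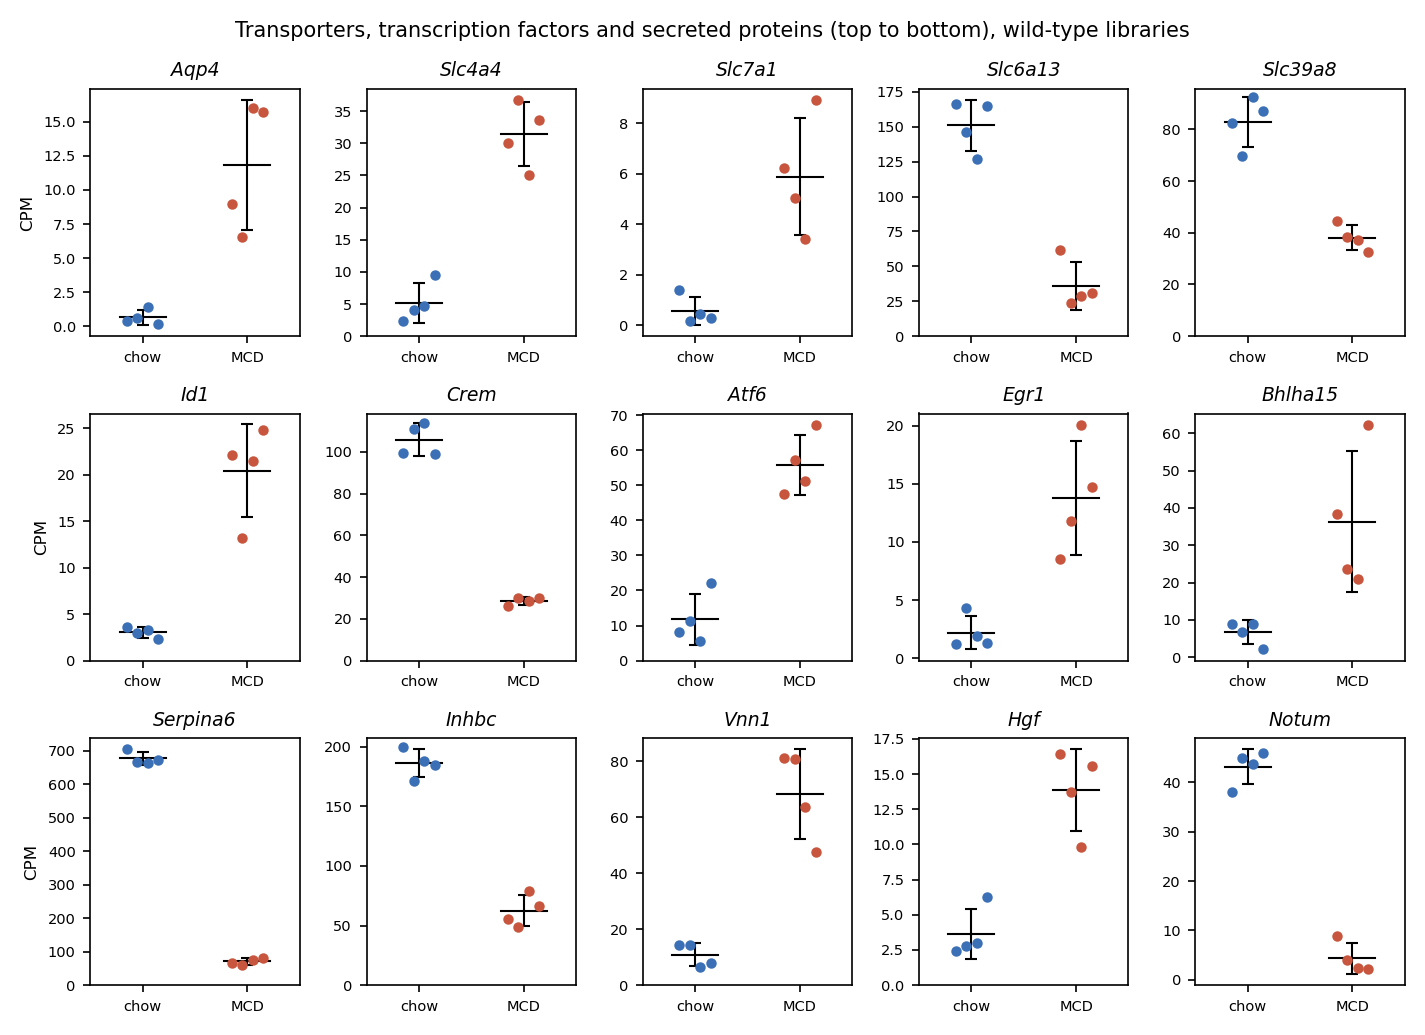
Each point is the level of 1 library in CPM on a linear axis, with chow in blue and MCD in red, the long bar at the mean and the whiskers at 1 SD (n = 4). Rows show transporters (Aqp4 to Slc39a8), transcription factors (Id1 to Bhlha15) and secreted proteins (Serpina6 to Notum). In all 15 genes the points of the diets do not overlap. The genes were chosen from the called ones for small p or large fold, and over all tested genes 38% did not overlap.

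Hepatokines and serpins were called lower more often than higher on MCD, while the lists of growth factors, of ADAM proteases and of S100 proteins and annexins were not. Of 56 hepatokines and liver hormones 21 fell and 3 rose (median -0.50; 16 and 2 with the index in the model, and 5 up without chow library 1), and of 23 serpin protease inhibitors 11 fell and 3 rose (median -0.63; 8 and 1 with the index). With library totals only 8 hepatokines fell and 13 rose (median 0.05), and 7 serpins fell and 6 rose (median -0.12). This turns the direction of the hepatokine count, but in that setting 4806 of all 11162 genes rose and 508 fell. The median gene then sat 0.549 higher on MCD, above both list medians. The summed hepatocyte markers were lower on MCD as well (107232 to 149070 against 184731 to 225198 CPM), and their part in these counts was not tested. Much of that sum was Alb, with a mean of 125866 CPM on chow and 71539 CPM on MCD. Of the 12 markers 6 fell and 0 rose (median -0.42), and with library totals only 2 fell and 1 rose (median 0.12). Serpina6, the corticosteroid-binding globulin of plasma, had 706, 668, 665 and 673 CPM on chow and 66.6, 59.6, 76.6 and 82.1 CPM on MCD. Serpina6 had a log2 fold of -3.25 ± 0.23 (adjusted p = 2.96e-07). Serpinc1 (antithrombin) fell from 2513 ± 261 to 966 ± 112 CPM (log2 fold -1.38 ± 0.17, adjusted p = 3.04e-05). Serpinf2 (antiplasmin) fell from 994 ± 80.1 to 418 ± 54.2 CPM (log2 fold -1.25 ± 0.15, adjusted p = 2.14e-05). Serpina4 (kallistatin) fell from 1162 ± 160.3 to 346 ± 98.2 CPM (log2 fold -1.75 ± 0.20, adjusted p = 1.85e-05). Serpina1 (antitrypsin) fell from 14149 ± 1545 to 6457 ± 1133 CPM (log2 fold -1.13 ± 0.18, adjusted p = 0.000223), and is itself among the hepatocyte markers. The fall of Serpina6 was larger than that of any of these 4 in log2 fold, and its 4 chow libraries lay within 665 to 706 CPM.

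Inhbc, the liver's activin C subunit, fell from 199.7, 171, 188 and 185 CPM to 55.6, 48.9, 78.6 and 66 CPM. Inhbc had a log2 fold of -1.58 ± 0.17 (adjusted p = 8.93e-06). Apom, the carrier of sphingosine 1-phosphate in high-density lipoprotein, fell from 415 ± 119 to 110.5 ± 26.2 CPM (log2 fold -1.91 ± 0.25, adjusted p = 5.56e-05). Ambp, the precursor of alpha-1-microglobulin and bikunin, fell from 5276 ± 819 to 2426 ± 494 CPM (log2 fold -1.12 ± 0.18, adjusted p = 0.000351). Against this direction, Vnn1, a pantetheinase bound to the cell surface and shed into plasma, rose from 14.5, 14.4, 6.65 and 8.09 CPM to 81.2, 81, 63.6 and 47.6 CPM. Vnn1 had a log2 fold of 2.64 ± 0.27 (adjusted p = 7.72e-06). Fam3c, a secreted factor of the FAM3 family, rose from 7.88 ± 2.42 to 21.4 ± 2.65 CPM (log2 fold 1.44 ± 0.24, adjusted p = 0.000344).

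Growth factors, WNT ligands and their inhibitors split evenly, 12 of 56 up and 11 down (median 0.05; 6 and 5 with the index, 7 and 12 without MCD library 2). Hgf, the hepatocyte growth factor made by nonparenchymal cells, rose from 2.41, 2.79, 3.03 and 6.28 CPM to 16.4, 13.7, 9.83 and 15.6 CPM. Hgf had a log2 fold of 1.93 ± 0.31 (adjusted p = 0.000281). Lgals3 (galectin 3), made by macrophages and other cells, rose from 13.6 ± 3.08 to 54.2 ± 15.8 CPM (log2 fold 2.00 ± 0.32, adjusted p = 0.000275). Btc (betacellulin), a ligand of the EGF receptor, rose from 0.107 ± 0.0816 to 1.09 ± 0.0782 CPM (adjusted p = 0.000183), from 4 counts over the chow libraries to 72 over the MCD libraries. Notum, a secreted enzyme that inactivates WNT ligands, had 38, 44.9, 43.6 and 46 CPM on chow and 8.93, 3.98, 2.37 and 2.12 CPM on MCD. Notum had a log2 fold of -3.33 ± 0.45 (adjusted p = 6.85e-05); without MCD library 1, the highest of its group, the fold was -3.94. Among 22 ADAM and ADAMTS proteases 6 rose and 1 fell (median 0.23; 1 and 1 with the index and a median of -0.37, 5 and 2 without MCD library 1, 4 and 0 without MCD library 2). Adam9, a membrane protease that sheds surface proteins, rose from 18.4 ± 6.84 to 49.4 ± 2.5 CPM (log2 fold 1.42 ± 0.22, adjusted p = 0.000239).

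Signalling genes were more often higher than lower. Of 73 genes of insulin and receptor tyrosine kinase signalling 22 rose and 5 fell (median 0.36; 11 and 6 with the index in the model, and 3 down without MCD library 2 or 4). Of 76 G protein-coupled receptors, adenylyl cyclases and phosphodiesterases 18 rose and 10 fell (median 0.29; 11 and 8 with the index). Foxo1, the factor that insulin holds out of the nucleus, rose from 4.08, 5.02, 5.78 and 5.9 CPM to 22.3, 22.4, 18.9 and 16.5 CPM. Foxo1 had a log2 fold of 1.95 ± 0.33 (adjusted p = 0.0004). Igf2r, which binds IGF2 and lysosomal enzymes, rose from 26.8 ± 7.14 to 94.6 ± 18 CPM (log2 fold 1.82 ± 0.24, adjusted p = 5.19e-05). Spred2, which damps MAP kinase signalling, rose from 0.816 ± 0.271 to 3.06 ± 0.466 CPM (log2 fold 1.92 ± 0.34, adjusted p = 0.000577).

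Of the receptor list, the 5 members with the smallest p are described next, 4 of which fell although more of the list rose. Gcgr, the glucagon receptor, fell from 149 ± 31.1 to 66.6 ± 9.66 CPM (log2 fold -1.16 ± 0.18, adjusted p = 0.000194). Adra1b, the alpha-1B adrenergic receptor, fell from 76 ± 13.3 to 32.1 ± 4.65 CPM (log2 fold -1.24 ± 0.16, adjusted p = 5.56e-05). Adora2b, an adenosine receptor, had 4.82, 6.88, 4.19 and 4.09 CPM on chow and 0.454, 0.326, 0.182 and 0.377 CPM on MCD. Adora2b had a log2 fold of -3.87 ± 0.45 (adjusted p = 2.14e-05). Lpar3, a receptor of lysophosphatidic acid, fell from 3.69 ± 0.915 to 0.34 ± 0.198 CPM (log2 fold -3.43 ± 0.56, adjusted p = 0.000325). S1pr1, of the sphingolipid list, a receptor of sphingosine 1-phosphate rich in endothelium, fell from 120.3, 115, 91.3 and 149 CPM to 40, 25.5, 41.9 and 34.3 CPM. S1pr1 had a log2 fold of -1.75 ± 0.23 (adjusted p = 5.73e-05). The summed endothelial markers overlapped between the diets (293 to 348 and 265 to 377 CPM), but of the 10 tested 2 rose (Cdh5 and Vwf) and 1 fell (Lyve1). Their part in the level of S1pr1 was not tested. Gnai1, an inhibitory G protein subunit that lowers cyclic AMP, rose from 1.48, 1.49, 1.3 and 1.43 CPM to 13.2, 10.2, 7.89 and 14.7 CPM. Gnai1 had a log2 fold of 3.00 ± 0.28 (adjusted p = 3.04e-06), with the 4 chow libraries within 0.19 CPM of each other.

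Nutrient sensing and cell death lists were near the background. Of 62 autophagy and mTORC1 genes 12 rose and 7 fell (median -0.07; 6 and 5 with the index, 4 down without MCD library 2), and of 63 cell death regulators 11 rose and 9 fell (median 0.12; 9 and 6). Sesn3, a sestrin that restrains mTORC1, rose from 3.91 ± 0.612 to 11.5 ± 2.23 CPM (log2 fold 1.55 ± 0.24, adjusted p = 0.000183). Eif4ebp1, the translation repressor that mTORC1 inactivates, rose from 22.6 ± 1.8 to 36.9 ± 4.99 CPM (log2 fold 0.71 ± 0.14, adjusted p = 0.00111). Tnfrsf10b, the death receptor of TRAIL, rose from 2.89 ± 1.25 to 9.98 ± 0.996 CPM (log2 fold 1.76 ± 0.30, adjusted p = 0.000461). Traf3, an adaptor of TNF family receptors, rose from 15.8 ± 1.35 to 31.6 ± 3.84 CPM (log2 fold 1.00 ± 0.16, adjusted p = 0.000277). Acsl4, which loads arachidonic acid into phospholipids and promotes ferroptosis, fell from 298 ± 95.7 to 112 ± 22.4 CPM (log2 fold -1.41 ± 0.26, adjusted p = 0.00075). Cideb, a lipid droplet protein of hepatocytes, fell from 218 ± 49.5 to 115 ± 9.8 CPM (log2 fold -0.92 ± 0.17, adjusted p = 0.000842; adjusted p = 0.109 with library totals only).

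Of 58 translation factors 8 rose and 8 fell (median -0.04; 11 and 5 with the index in the model, 5 to 7 up and 5 or 6 down without chow library 1 or 3 or MCD library 2 or 3). Of 37 aminoacyl-tRNA synthetases 8 rose and 1 fell (median 0.08), but 2 to 5 rose without chow library 2 or 3 or any one MCD library, and 3 rose and 4 fell with the index. Wars, which charges tryptophan, rose from 22.4 ± 1.92 to 35.2 ± 2.18 CPM (log2 fold 0.65 ± 0.14, adjusted p = 0.00265).

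Enzymes that handle lipid mediators included some of the widest gaps between the diets. Of 32 genes of eicosanoid synthesis and phospholipases A2 8 fell, Ltc4s among them, and 4 rose (median 0.09; 7 and 3 with the index, and 7 up without chow library 4). Pla2g7, the secreted phospholipase that clears platelet-activating factor, rose from 1.11, 1.12, 2.89 and 0.666 CPM to 15.4, 23.6, 12.6 and 20.2 CPM. Pla2g7 had a log2 fold of 3.71 ± 0.41 (adjusted p = 1.52e-05). Pla2g15, a lysosomal phospholipase, rose from 14.4 ± 3.81 to 35.4 ± 5.73 CPM (log2 fold 1.29 ± 0.18, adjusted p = 0.000103). Pla2g16 (now Plaat3), a phospholipase of fat cells and other tissues, fell from 46.5 ± 5.03 to 14.6 ± 1.92 CPM (log2 fold -1.67 ± 0.20, adjusted p = 2.94e-05). Faah, which breaks down endocannabinoids, fell from 171 ± 19.9 to 95.3 ± 9.52 CPM (log2 fold -0.84 ± 0.16, adjusted p = 0.00104), though not with library totals only (adjusted p = 0.204). Of 46 sphingolipid genes 13 rose and 4 fell (median 0.21; 5 and 2 with the index, 6 and 5 without chow library 3, and 2 down without chow library 2 or MCD library 2 or 3). Gm2a, the activator protein of ganglioside breakdown, fell from 453 ± 90.1 to 221 ± 15 CPM (log2 fold -1.04 ± 0.15, adjusted p = 0.000144).

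Peroxisomal and antioxidant enzymes fell in 18 of 52 cases and rose in 2 (median -0.50; 8 and 3 with the index in the model, which brought the median to 0.06, a median of 0.05 with 7 down and 7 up with library totals only, and 1 up without chow library 2 or MCD library 2). With library totals only the median gene of all tested sat 0.549 higher on MCD. Gpx1, the cytosolic glutathione peroxidase and a selenoprotein, had 1324, 1220, 1328 and 2201 CPM on chow and 291, 286, 218 and 179 CPM on MCD. Gpx1 had a log2 fold of -2.64 ± 0.31 (adjusted p = 2.32e-05); chow library 4 was the highest and the diets did not overlap. Catalase (Cat) fell from 4550 ± 636 to 1651 ± 257 CPM (log2 fold -1.46 ± 0.19, adjusted p = 5.06e-05). Sod1, the cytosolic superoxide dismutase, fell from 731 ± 191 to 272 ± 31.9 CPM (log2 fold -1.43 ± 0.22, adjusted p = 0.000209). Hao2, a peroxisomal hydroxyacid oxidase, fell from 500.2 ± 85.9 to 135 ± 29.9 CPM (log2 fold -1.89 ± 0.22, adjusted p = 1.85e-05). Gpx3, the glutathione peroxidase found in plasma, rose from 22.7, 19.2, 27.2 and 15.1 CPM to 63, 87.1, 41.3 and 53.1 CPM. Gpx3 had a log2 fold of 1.54 ± 0.25 (adjusted p = 0.000291).

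Retinoid, steroid and thyroid hormone enzymes fell in 17 of 43 cases and rose in 6 (median -0.58; 8 and 3 with the index, which brought the median to -0.02, as library totals only brought it to -0.04 with 7 down and 11 up; 11 fell without MCD library 2 and 10 without MCD library 4). With library totals only the median gene of all tested sat 0.549 higher on MCD. Srd5a1, the steroid 5-alpha reductase, fell from 314, 351, 238 and 376 CPM to 50.3, 43.3, 42.8 and 41 CPM. Srd5a1 had a log2 fold of -2.85 ± 0.25 (adjusted p = 1.63e-06). Rdh7, a retinol and steroid dehydrogenase, fell from 893 ± 163 to 339.6 ± 55.8 CPM (log2 fold -1.40 ± 0.17, adjusted p = 3.25e-05). Hsd11b2, which inactivates corticosterone, fell from 4.36 ± 0.927 to 0.375 ± 0.252 CPM (log2 fold -3.54 ± 0.46, adjusted p = 5.14e-05). Dhrs9, a short-chain dehydrogenase of retinol and steroids, had 3 counts over the chow libraries and 2.65, 1.57, 2.43 and 2.17 CPM on MCD (adjusted p = 7.34e-05).

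Among alcohol and aldehyde dehydrogenases, flavin monooxygenases, carboxylesterases and aldo-keto reductases 18 of 59 fell and 11 rose (median -0.43; 13 and 9 with the index, which brought the median to 0.08, and 9 and 20 with a median of 0.11 with library totals only). With library totals only the median gene of all tested sat 0.549 higher on MCD. Aldh1a1, which makes retinoic acid, rose from 73.3, 64.8, 53 and 40.4 CPM to 299.6, 276, 199 and 166 CPM. Aldh1a1 had a log2 fold of 2.02 ± 0.23 (adjusted p = 1.67e-05). Fmo1, a flavin monooxygenase, rose from 37.5, 32.2, 39 and 24.1 CPM to 195, 179, 152 and 142 CPM. Fmo1 had a log2 fold of 2.33 ± 0.21 (adjusted p = 2.53e-06). Aldh18a1, the first enzyme of proline synthesis from glutamate, rose from 1.49 ± 0.66 to 8.27 ± 3.19 CPM (log2 fold 2.45 ± 0.34, adjusted p = 9.06e-05). Of the carboxylesterases, Ces2c rose from 11.7 ± 3.08 to 36.8 ± 3.96 CPM (log2 fold 1.64 ± 0.21, adjusted p = 5.01e-05) and its close relative Ces2j fell from 7.76 ± 1.71 to 1.87 ± 0.549 CPM (log2 fold -2.03 ± 0.34, adjusted p = 0.000404); reads shared between them make both values uncertain.

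Of 18 polyamine genes 2 rose and 3 fell (median -0.20; 3 and 2 with the index, and 1 up without any one library other than chow library 4). Odc1, the ornithine decarboxylase that starts polyamine synthesis, rose from 40.5, 32.1, 28.2 and 31.2 CPM to 90.1, 125, 93 and 129 CPM. Odc1 had a log2 fold of 1.72 ± 0.23 (adjusted p = 6.45e-05). Oaz1, the antizyme that targets it for breakdown, fell from 271 ± 56.1 to 121 ± 16.8 CPM (log2 fold -1.17 ± 0.28, adjusted p = 0.00527), a call lost with the index as a covariate (adjusted p = 0.325). Adi1, of the pathway that recovers methionine from polyamine synthesis, fell from 137 ± 7.69 to 74.5 ± 10.6 CPM (log2 fold -0.87 ± 0.13, adjusted p = 0.000168), which was not called with library totals only (adjusted p = 0.0847). Nucleotide synthesis genes rose in 12 of 51 cases and fell in 7 (median 0.10; 12 and 4 with the index, and 4 down without MCD library 2 or 4). Of the CTP synthases, Ctps1 rose from 7.67 ± 1.99 to 20.1 ± 3.95 CPM (log2 fold 1.39 ± 0.23, adjusted p = 0.000365). Ctps2 rose from 16.2 ± 2.9 to 33.1 ± 3.98 CPM (log2 fold 1.02 ± 0.15, adjusted p = 0.000114). Impdh1, of guanine nucleotide synthesis, rose from 1.71 ± 0.539 to 6.07 ± 1.46 CPM (log2 fold 1.85 ± 0.27, adjusted p = 0.000121). Tk1, a thymidine kinase, rose from 10.8 ± 0.624 to 24.1 ± 2.58 CPM (log2 fold 1.15 ± 0.18, adjusted p = 0.00028). Dpys, of pyrimidine breakdown, fell from 295 ± 25.6 to 162 ± 18.6 CPM (log2 fold -0.86 ± 0.14, adjusted p = 0.000256; adjusted p = 0.0954 with library totals only).

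Glycolysis and the pentose phosphate pathway split, 9 of 44 up and 10 down (median -0.12; 1 and 3 with the index, 5 down without chow library 1 or 2 or MCD library 1, 2 or 4). Pkm, the pyruvate kinase of most tissues other than adult liver, rose from 7.55 ± 1.46 to 25.2 ± 11.1 CPM (log2 fold 1.74 ± 0.30, adjusted p = 0.000515). Gckr, the regulatory protein of glucokinase, fell from 303 ± 45.1 to 130.1 ± 26.6 CPM (log2 fold -1.22 ± 0.23, adjusted p = 0.000921). Khk, the fructokinase, fell from 309 ± 54.9 to 130.0 ± 16 CPM (log2 fold -1.25 ± 0.28, adjusted p = 0.00309), a call lost with the index as a covariate (adjusted p = 0.19).

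**Figure D4:**
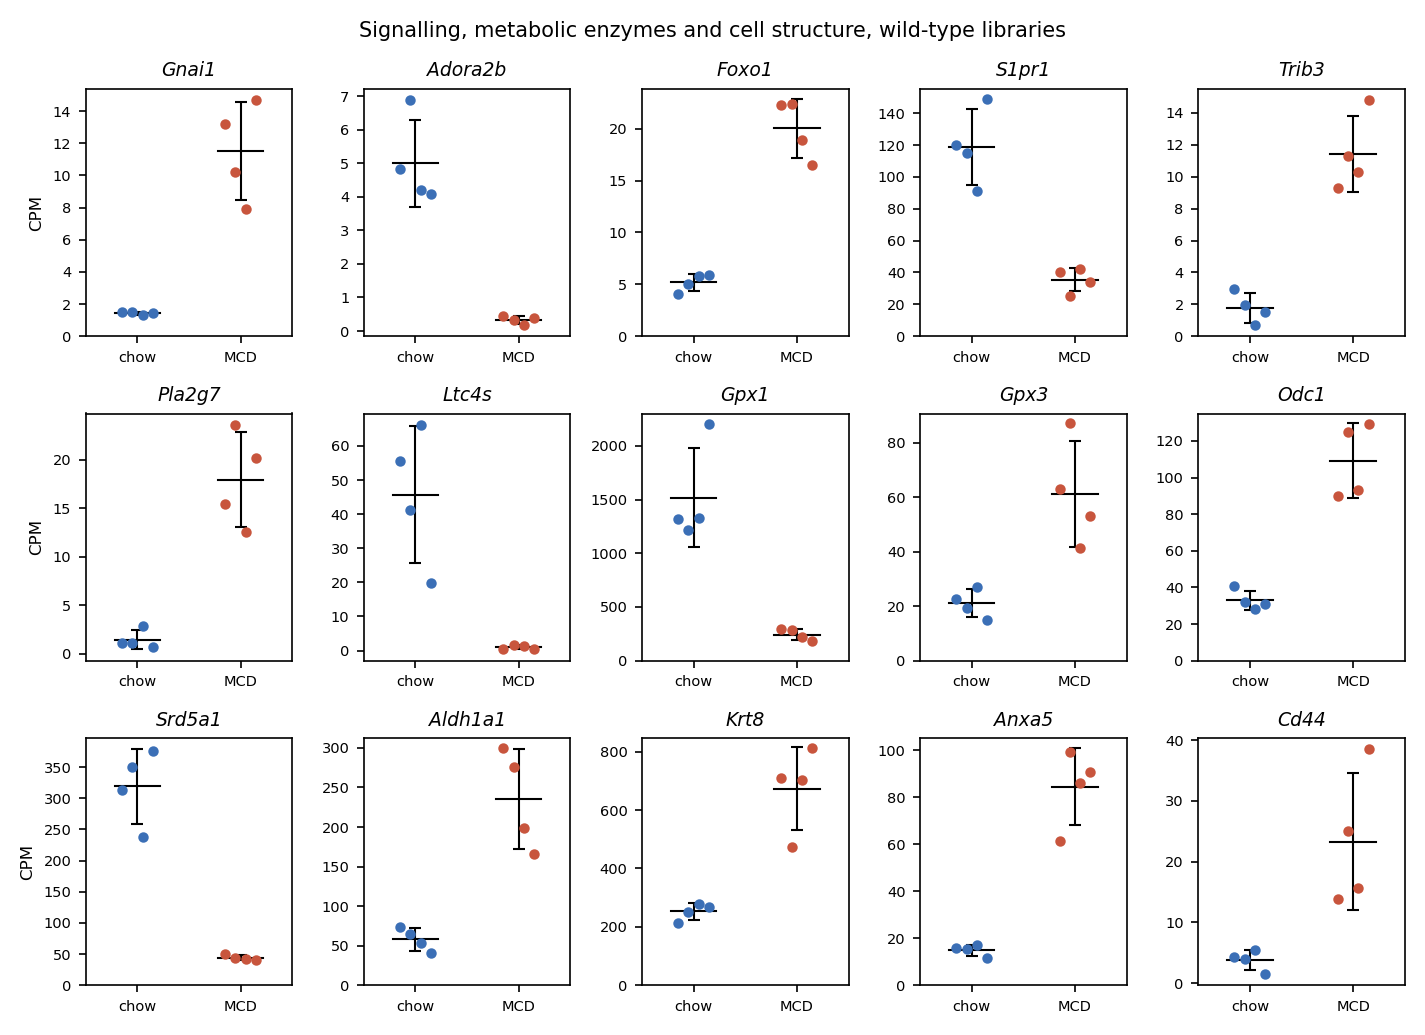
Levels of 15 genes of signalling, lipid mediators, metabolism and cell structure are shown in CPM on linear axes, 1 point per library (chow blue, MCD red), with the mean and 1 SD (n = 4). The diets do not overlap in any of the 15 panels, and Gpx1 shows chow library 4 (2201 CPM) above the other chow libraries. These genes too were chosen from the called ones, and over all tested genes 38% did not overlap.

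Structural genes of the cell were more often higher on MCD. Of 85 cytoskeletal genes 35 rose and 6 fell (median 0.42; 20 and 5 with the index in the model). Of 67 genes of junctions, cadherins and integrins 29 rose and 6 fell (median 0.59; 14 and 5, and 2 or 3 down without chow library 2 or 4 or MCD library 2 or 3), and of 18 S100 proteins and annexins 8 rose and 0 fell (median 0.74; 6 and 1). The bile duct cell markers summed to 89.2 to 154 CPM on MCD against 33.6 to 58.9 CPM, and their part in these counts was not tested. Of the 8 tested 2 rose, Spp1 (from 3.74 ± 2.64 to 51.8 ± 31.4 CPM) and Epcam (from 15.8 ± 2.21 to 40.2 ± 3.58 CPM). The median log2 fold of the 8 was 1.14. Krt8, a keratin of hepatocytes and bile duct cells, rose from 214, 249.7, 279.5 and 267 CPM to 709, 473, 702 and 812 CPM. Krt8 had a log2 fold of 1.42 ± 0.19 (adjusted p = 5.47e-05). Tubb6, a beta tubulin, rose from 4.57 ± 1.63 to 22.4 ± 8.66 CPM (log2 fold 2.28 ± 0.30, adjusted p = 5.72e-05). Stmn1, which takes microtubules apart, rose from 9.46 ± 3.62 to 29.1 ± 1.49 CPM (log2 fold 1.62 ± 0.24, adjusted p = 0.000154). Capn2, a calpain protease, rose from 33.2 ± 2.32 to 72.3 ± 7.19 CPM (log2 fold 1.12 ± 0.15, adjusted p = 5.15e-05).

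Annexins bind membranes in a calcium-dependent way, and 7 of the 10 tested genes of the family rose and 0 fell (median 1.04). With the index in the model 4 rose and 1 fell. Over all genes 18.2% rose in the main fit. Anxa5 rose from 15.9, 15.2, 16.9 and 11.4 CPM to 61.2, 99.4, 86.2 and 90.5 CPM. Anxa5 had a log2 fold of 2.51 ± 0.22 (adjusted p = 1.63e-06). Anxa2 rose from 15.2 ± 5.96 to 69.7 ± 6.53 CPM (log2 fold 2.20 ± 0.37, adjusted p = 0.000365). Its binding partner S100a10 rose from 15.5 ± 4.28 to 69.3 ± 14.5 CPM (log2 fold 2.17 ± 0.29, adjusted p = 6.85e-05). Anxa13, an annexin of epithelia, had 2.6, 1.39, 3.18 and 1.9 CPM on chow and 20.1, 20.6, 19.2 and 19.6 CPM on MCD. Anxa13 had a log2 fold of 3.15 ± 0.36 (adjusted p = 1.8e-05). Among adhesion molecules, Cd44, the hyaluronan receptor, rose from 4.36, 4, 5.49 and 1.52 CPM to 13.9, 25, 15.7 and 38.5 CPM. Cd44 had a log2 fold of 2.62 ± 0.35 (adjusted p = 6.35e-05). Without the libraries numbered 4 it was 1.99. Itga6 and Itgb4, which together form a laminin receptor of epithelia, both rose. Itga6 went from 14.7 ± 2.81 to 50.5 ± 8.57 CPM (log2 fold 1.78 ± 0.27, adjusted p = 0.000167) and Itgb4 from 1.95 ± 0.49 to 7.18 ± 1.24 CPM (log2 fold 1.90 ± 0.30, adjusted p = 0.000238). The tetraspanins Cd9 and Cd63 rose with log2 folds of 1.99 ± 0.26 (adjusted p = 5.6e-05) and 1.30 ± 0.21 (adjusted p = 0.000356).

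Grouped by the letters of their symbols, several families had many calls in 1 direction. Of 23 kinesins (Kif) 12 rose and 0 fell (median 0.96; 6 and 1 with the index in the model). Kif12 rose from 1.58, 2.14, 1.88 and 1.05 CPM to 18.2, 19.1, 17.3 and 29 CPM. Kif12 had a log2 fold of 3.66 ± 0.41 (adjusted p = 1.45e-05). Kif11, a motor of the mitotic spindle, rose from 2.13 ± 0.199 to 7.07 ± 0.781 CPM (log2 fold 1.73 ± 0.22, adjusted p = 5.14e-05). Of 11 exocyst subunits (Exoc), which tether secretory vesicles, 6 rose and 0 fell (median 0.50; 2 and 0 with the index), Exoc4 with 1.53 ± 0.23 (adjusted p = 0.000145) among them. The 11 acyl-CoA thioesterases (Acot) split into 6 up and 3 down (median 0.70; 2 and 1 with the index). Acot1 rose from 0.0927, 0.372, 0.144 and 0.381 CPM to 5.22, 13.5, 3.94 and 1.93 CPM (adjusted p = 0.000276). Acot9 rose from 5.4 ± 1.99 to 12.7 ± 0.899 CPM (log2 fold 1.21 ± 0.24, adjusted p = 0.00159).

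The subunits of several complexes were lower on MCD, and the message length index differed between the diets as well. The message lengths of these genes were not examined. Of 10 Ndufb and 12 Ndufa subunits of respiratory complex I 9 and 10 fell (medians -1.02 and -1.26), of 17 genes named Cox, mostly of cytochrome c oxidase, 12 fell (median -0.73), and of 10 Commd genes, which act in endosomal protein sorting, 7 fell (median -0.62). Of 49 proteasome subunits and assembly factors 19 fell and 0 rose (median -0.49, and 0.03 with library totals only). With the index in the model 5 Ndufb, 3 Ndufa, 3 Cox, 2 Commd and 5 proteasome genes fell. With library totals only 5 Ndufb, 3 Ndufa, 1 Cox, 0 Commd and 2 proteasome genes fell (medians of -0.48, -0.72, -0.19 and -0.08 for the 4 families), and 6 proteasome genes rose. In that setting the median gene of all tested sat 0.549 higher on MCD. The counts that fell were 5 or 6 for Ndufa without chow library 3 or 4 or MCD library 2 or 4. For Cox they were 7 without chow library 3 or MCD library 2. They were 3 or 4 for Commd without chow library 3 or MCD library 1, 2 or 4, and 7 to 12 for the proteasome without chow library 3 or 4 or MCD library 1, 2 or 4. Without the 3 libraries that lay apart in the index (chow library 4 and 2 labelled knockout) 34 proteasome genes fell. Of 45 Rpl and 41 Rps genes, mostly cytosolic ribosomal proteins, 0 fell and 1 and 3 rose (medians -0.18 and -0.11; 0.37 and 0.42 with library totals only; 1 of the Rps genes rose without chow library 1 or 2), while with the index in the model 16 and 15 of them rose.

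The genes of these families with calls in every alternative included Ndufb11 (from 125 ± 22.7 to 52.4 ± 3.05 CPM, log2 fold -1.25 ± 0.16, adjusted p = 4.47e-05) and Ndufa11 (from 158 ± 30.6 to 63.7 ± 9.63 CPM, log2 fold -1.31 ± 0.17, adjusted p = 5.76e-05), both membrane subunits of complex I. Psmg1, a chaperone of proteasome assembly, fell from 40.6 ± 10.7 to 19.2 ± 2.34 CPM (log2 fold -1.08 ± 0.19, adjusted p = 0.00061). Averaged over the 10 Ndufb genes, the log2 level relative to the chow mean was -0.96, -1.15, -0.83 and -1.15 in MCD libraries 1 to 4, and over the 45 Rpl genes it was -0.16, -0.22, 0.07 and -0.25. The Ndufb mean of every MCD library lay below every chow library (-0.21 at the lowest), and the Rpl means overlapped the chow range of -0.21 to 0.21.

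**Figure D5:**
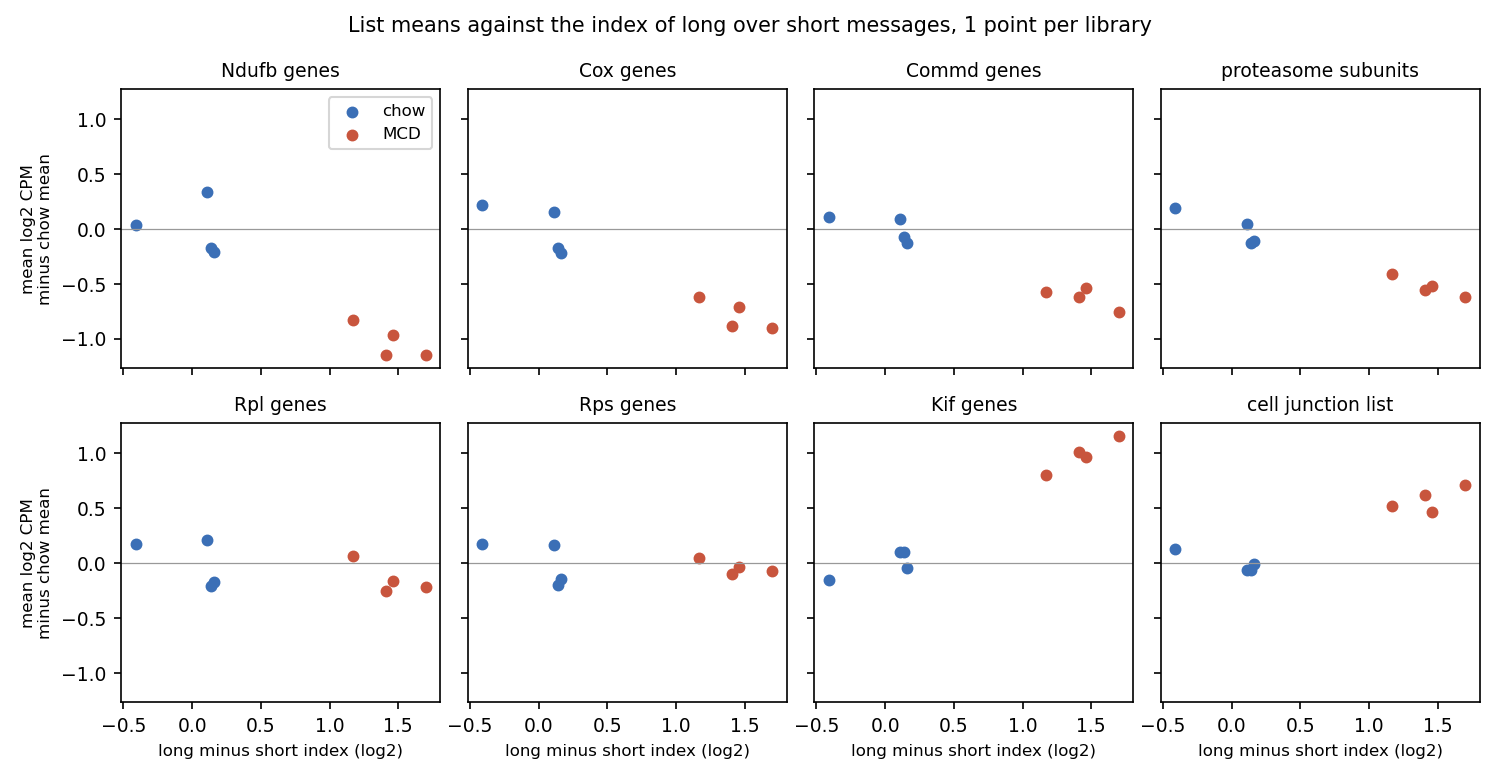
Each point is 1 library (chow blue, MCD red), with the message length index on the x axis (log2). The y axis gives the mean log2 CPM of a family. Both are relative to their chow means. Ndufb, Cox, Commd and proteasome genes lie lower and Kif and cell junction genes higher in the 4 MCD libraries, while Rpl and Rps genes overlap.

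Whether the response differed in the libraries labelled Tspo knockout was asked with the difference of the 2 diet effects. edgeR's test called 0 of 11162 genes (0%), with 330 at an unadjusted p under 0.05, fewer than the 5% that chance would give. DESeq2 called 1, LOC500124, a gene named here only because the test called it (log2 difference -1.27, adjusted p = 0.0256). Without the libraries numbered 4 edgeR called 1, Socs2, likewise named after its value was seen (log2 difference -3.09, adjusted p = 0.0165). Without the 3 libraries that lay apart in their groups it called 20. They were wild-type chow library 4 and, of those labelled knockout, chow library 4 and MCD library 1. The test does not show that the diet effects were alike.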

How the data were processed

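RNA of whole liver was sequenced as stranded mRNA libraries, per the labels' protocols. The authors deposited expected counts per gene, not normalized, and per the submitters' processing notes the tools were Bowtie2 2.1.0 and RSEM 1.2.15, with build rn6, their roles unstated. For annotation and strand setting the sources used here give nothing. Expected counts assign shared reads by estimate, so close gene copies are uncertain; 88.9% of values were whole and all were rounded. The authors' deposited table of normalized CPM was not used.

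In edgeR 4.0.16 (R 4.3.3), genes were filtered by filterByExpr, scaled by TMM and fitted by the robust quasi-likelihood model with 1 term for each of 4 groups of 4 libraries, 16 in all, which share 1 estimate of the spread (12 residual degrees of freedom; the common coefficient of biological variation was 28%). The contrast is wild-type MCD minus wild-type chow. Of 17168 genes 11162 were tested, and calls use a Benjamini-Hochberg adjusted p under 0.05. SE is the log2 fold divided by the root of F. The fit was tested on simulated data.

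The members and gene lists were chosen with earlier results of these data known, so counts over lists are descriptions beside those of all genes, with no test. Genes were named from the called genes of largest fold without overlap between the diets, from the called members of smallest p in each list (up to 5), and from symbol families of at least 10 tested genes mostly called in 1 direction (up to 3). Not all genes so chosen are described. Marker sums used lists for 9 cell or tissue types. Promoter sequences are RefSeq's (GRCr8). Alternatives covered scaling, DESeq2 1.42.0, the filter, the libraries in the fit, the message length index as covariate and a replicate block.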

Additional observations from a re-analysis of the deposited data

Results flagged for a closer look

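In 19 of 286 groups of 4 wild-type libraries (6.64%) 1 library lay farther from the rest than Dixon's 95% limit, where chance gives about 5%. The index of message length and 8 of the genes did so in chow library 4. The index was -0.41 there against 0.11 to 0.16 in the other chow libraries. Gpx1 (2201 CPM), Hgf (6.28 CPM), Oaz1 (355 CPM), Sds (104 CPM), Slc39a9 (10.1 CPM) and Yap1 (13.6 CPM) were high in that library, Stmn1 (4.09 CPM) was low, and Gpr64 was at 0 CPM. Chow library 1 was high in Cux2 (36.9 CPM) and low in Mafk (11.5 CPM). Chow library 3 was high in Ndufb11 (159 CPM), at 0 CPM in Dhrs9, and the 1 chow library with a count of Slc5a9 (0.144 CPM). On MCD, library 1 alone held counts of Ky (0.0757 CPM) and Sult1e1 (19.4 CPM), library 2 was low in Serpinc1 (798 CPM) and Slc43a1 (7.77 CPM), and library 4 was high in Kif12 (29 CPM).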

How the results depend on the processing

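Leaving aside genes named only for the marker sums, 141 genes were named and tested. Of these, 127 kept their call and direction in all 18 alternatives, and 0 reversed. In every fit without 1 library 140 kept their call, with Cux2 the exception. The index in the model ended 8 calls and library totals only ended 5. These genes were picked for small p or large fold in the main fit, so their counts do not stand for all calls. Over all 3809 calls 41.6% remained with the index and 66.7% with library totals only. Without each wild-type library in turn, 2831 to 3872 genes were called, 1548 to 2086 higher and 1281 to 1786 lower. MCD library 2 gave the lowest total and chow library 4 the highest. With library totals only 4806 rose and 508 fell (90.4% higher against 53.3%). With the index as covariate 2382 were called, 1197 higher and 1185 lower, but the index itself parts the diets in the 8 wild-type libraries. In the libraries labelled knockout, also in that fit, it does not. There it was -1.16 to -0.04 on chow, -0.54 in MCD library 1 and 1.27 to 1.68 in the other MCD libraries. Without the 3 libraries that stood apart, chosen after seeing the data, 5663 were called, 2891 higher and 2772 lower. For the difference between genotypes DESeq2 called 1 gene, edgeR without the libraries numbered 4 called 1, and without the 3 apart 20. The cause of these changes was not tested. With the replicate block 3652 were called and no named gene lost its call. Same-numbered libraries correlated at 0.04, 0.03, -0.14 and 0.06, so the numbers were not taken as pairs. Genes with few counts have wide errors, and their absence in a diet is limited by depth.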
